A study of Mus musculus with 10 samples.

Results

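The 40 mouse collagen genes examined here encode the chains of the collagens, the main structural proteins of the extracellular matrix, and the measurement is the accessibility of chromatin at their promoters and in and around their loci in the developing epicardium. A region was counted as a member's when its summit lay inside the gene or within 25 kb of it on mm10, and a promoter was the sequence within 1 kb of a transcription start site (TSS). Of 184764 accessible regions found over 9 libraries, 912 met this rule. The 40 genes are 11 fibrillar collagens, 6 basement membrane collagens and 23 others, out of 21938 protein-coding genes of the annotation. Libraries were made by ATAC-seq, in which a transposase cuts open chromatin and tags the fragments for sequencing.

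All cells came from Rosa26tdTomato;Wt1CreERT2/+ mouse embryos of a C57BL/6J background whose mothers received tamoxifen on embryonic day (E) 9.5, so that cells expressing *Wt1* on that day, and their descendants, carry tdTomato. No group lacked the Cre allele, the reporter or tamoxifen, and labelling depends on *Wt1* activity at 1 moment, so later or unlabelled epicardial cells are not covered. Epicardial cells were sorted as CD31-tdTomato+PDPN+ at E11.5 and at E17.5, with 3 libraries from each stage, and epicardium-derived cells (EPDCs) as CD31-tdTomato+PDPN- at E12.5 (1 library) and E13.5 (2 libraries, of which 1 combines a pair of technical replicates). Each library pooled the hearts of littermates, by the labels 6 at E11.5, 4 at E17.5 and 4 to 13 at E13.5, with no number given for E12.5. The labels give 40000 to 50000 sorted cells a library, and the study's methods a lower minimum. No EPDC library shares a stage with an epicardial one, so stage, cell type and sort cannot be told apart in any comparison of EPDCs with the epicardium, and in pooled cells a site open in fewer cells cannot be told from one less open in every cell.

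Collagens share a helical domain built of repeated glycine-containing triplets, in which chains wind into a rod. Fibrillar collagens pack into the tension-bearing fibrils of connective tissue, type IV forms the sheet of basement membranes such as the one beneath the epicardium, and the remaining types link, decorate or anchor these structures or span the cell membrane. When epicardial cells leave the surface of the heart they become EPDCs, which are known to give rise to cardiac fibroblasts and mural cells, the main makers of fibrillar collagen in the heart.

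The values are rank percentiles. Within each library every summit was ranked by the −log10 p that the authors' peak caller gave it, and an element took the percentile of its strongest summit, so 100 marks the strongest summit of a library and 0 an element with no summit past the authors' threshold, which does not show that it was closed. Values of the 3 libraries of a group are given in the order replicates 1, 2 and 3, and for EPDCs with the E12.5 library first and then samples 1 and 2 of E13.5. Differences are in percentile points with their standard errors from limma, fitted across all regions or all promoters, and calls are at a Benjamini-Hochberg adjusted p under 0.05. An exact permutation test of 3 libraries against 3 cannot go below 0.1, and one of 3 against 6 cannot go below 0.0119.

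Regions carrying the most certain difference in each direction are shown first, because the results below turn on regions outside the collagen promoters and not on these promoters alone. The sequences are the plus strand of GRCm38 (mm10), 300 bases centred on the summit, with capitals marking the letters of a searched motif (AP-1 TGANTCA, TEAD GGAATG, E-box CAGCTG, NF-Y box CCAAT, GC box GGGCGG, RUNX TGTGGT, NFI half-site TTGGCA, T-box AGGTGTGA and the motif of GATA factors AGATAA, each on either strand). The first is the region near a collagen gene that rose most certainly from E11.5 to E17.5, 16.6 kb upstream of *Col9a3* and within 1 kb of a TSS of *Mrgbp*. The second fell most certainly and lies in an intron of *Col4a2*, 101.6 kb from its TSS. The next, in an intron of *Col25a1* 205.1 kb from the TSS, had a summit in every EPDC library and in no epicardial one, and the last, 10.6 kb upstream of *Col6a2*, was lower in EPDCs. Where exons or sequence recurring in the genome ranked ahead of these, they were passed over for display.
*Col9a3* −16.6 kb, chr2:180580990-180581289: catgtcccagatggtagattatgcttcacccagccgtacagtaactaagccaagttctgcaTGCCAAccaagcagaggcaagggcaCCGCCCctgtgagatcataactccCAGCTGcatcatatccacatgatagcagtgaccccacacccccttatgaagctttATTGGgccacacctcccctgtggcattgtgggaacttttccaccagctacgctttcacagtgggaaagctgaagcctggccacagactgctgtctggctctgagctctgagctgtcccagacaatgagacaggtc
*Col4a2* +101.6 kb, chr8:11414208-11414507: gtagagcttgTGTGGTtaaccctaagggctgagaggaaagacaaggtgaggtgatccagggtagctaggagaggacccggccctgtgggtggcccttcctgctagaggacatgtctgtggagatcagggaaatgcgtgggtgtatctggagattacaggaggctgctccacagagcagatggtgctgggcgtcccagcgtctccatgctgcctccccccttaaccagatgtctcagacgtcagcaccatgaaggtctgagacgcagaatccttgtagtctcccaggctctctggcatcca
*Col25a1* +205.1 kb, chr3:130385850-130386149: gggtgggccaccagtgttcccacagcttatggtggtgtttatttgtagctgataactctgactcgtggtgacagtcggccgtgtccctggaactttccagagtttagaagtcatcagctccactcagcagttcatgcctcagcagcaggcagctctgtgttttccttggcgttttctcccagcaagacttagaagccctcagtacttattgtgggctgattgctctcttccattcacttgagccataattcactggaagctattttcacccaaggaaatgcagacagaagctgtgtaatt
*Col6a2* −10.6 kb, chr10:76634105-76634404: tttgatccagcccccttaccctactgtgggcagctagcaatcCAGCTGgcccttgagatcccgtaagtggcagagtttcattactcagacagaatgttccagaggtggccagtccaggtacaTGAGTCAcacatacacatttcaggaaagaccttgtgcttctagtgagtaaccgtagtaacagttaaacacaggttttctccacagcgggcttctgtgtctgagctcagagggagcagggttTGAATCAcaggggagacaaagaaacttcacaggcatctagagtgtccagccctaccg

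The *Col9a3* upstream region held 1 NFI half-site, 1 GC box, 1 E-box and 1 NF-Y box (CCAAT) in these 300 bases, the *Col4a2* intronic region 1 RUNX motif, and the *Col6a2* upstream region 2 AP-1 motifs and 1 E-box. The *Col25a1* region held none of the motifs searched, which says only that these letters are not in this window. The promoter of *Col1a2*, whose value changed in both comparisons, is given for the 300 bases that precede its TSS on the plus strand, from which the gene is read. It held 3 GC boxes, to which factors of the SP family bind, and 1 NFI half-site.
*Col1a2* promoter, chr6:4505193-4505492: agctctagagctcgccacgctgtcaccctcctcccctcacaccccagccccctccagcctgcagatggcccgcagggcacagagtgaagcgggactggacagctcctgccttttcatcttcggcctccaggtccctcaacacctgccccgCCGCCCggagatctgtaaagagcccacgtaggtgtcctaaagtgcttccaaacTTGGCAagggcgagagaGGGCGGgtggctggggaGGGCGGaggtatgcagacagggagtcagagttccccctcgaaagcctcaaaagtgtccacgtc

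Libraries held 94909 to 142743 summits, of which 512 to 703 lay in or near a collagen gene. These were 0.458 to 0.46% of the summits at E11.5, 0.517 to 0.539% at E17.5 and 0.511 to 0.534% in EPDCs, a narrow range within each group. The background came to 2.07 to 4.26 fragments per position in 8 libraries and to 10.9 in E13.5 sample 2, so that the smallest detectable summit differs between libraries. The promoter of *Upk3b*, an epicardial surface gene, stood at 97.0 to 99.2 in the epicardial libraries and at 73.6, 22.8 and 46.1 in EPDCs (adjusted p = 0.00357), and that of *Postn*, a matrix gene of fibroblasts, was at 0 in all E11.5 libraries, at 43.5 to 50.2 at E17.5 and at 71.7 to 81.8 in EPDCs. Over 10 epicardial markers the mean promoter value was 74.6 to 79.7 at E11.5, 87.8 to 91.3 at E17.5 and 60.4 to 67.8 in EPDCs. Of these *Msln*, *Krt8* and *Krt18* were called higher at E17.5 and *Wt1* and *Bnc1* lower, and *Wt1*, *Tbx18*, *Tcf21* and *Bnc1* did not pass the test in EPDCs. Over 8 mesenchymal markers, it was 67.4 to 67.8, then 63.2 to 72.1, then 72.4 to 81.6, and its members went both ways, with *Postn* and *Cspg4* called higher in EPDCs, *Pdgfra* and *Dcn* lower, and *Dcn* and *Rgs5* lower at E17.5. Of the endothelial markers *Pecam1*, *Cdh5*, *Tie1* and *Emcn* were at 0 in every library, and the list mean was 28.5 to 29.6. *Tek* had 78.9 to 85.8, and *Kdr* had 88.1 to 89.6 in the epicardium and 90.7 to 93.2 in EPDCs, where it was called higher (adjusted p = 0.0489). Of the blood markers *Ptprc*, *Spi1*, *Gata1* and *Hbb-bt* were at 0 in every library, while *Cd68* had 52.2 to 79.9 in the epicardium and at most 22.2 in EPDCs, and the mean of the 6 genes was 9.76 or more in every epicardial library and 0.0 to 3.7 in EPDCs. Of the cardiomyocyte list *Myh6* was at 0 throughout. *Actn2* had 77.8 to 94.5 and *Tnnt2* 59.9 to 89.7, both called lower at E17.5 (adjusted p = 0.0038 and 0.000382). *Myh7* had 22.7 to 59.8 in the epicardium and 0 in every EPDC library (adjusted p = 0.00186). The list averaged 35.8 to 40.5, 28.7 to 34.4 and 28 to 29.1. The part of these shifts in the collagen results was not tested.

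The EPDC lists also held strong summits at windows where the epicardial lists held none, and the cause was not tested. At 193 of the 21938 promoters the value was above 90 in all 3 EPDC libraries and 0 in all 6 epicardial ones, and at 0 promoters was the reverse found. The same held for 378 of 184764 regions against 0, and for 1 collagen region but no collagen promoter. EPDC lists held 252 to 268 summits on sequences other than the main chromosomes, and the epicardial lists held 0. An absence from the epicardial lists beside a value above 90 in EPDCs is therefore not read below as a difference between the cells. Only this level was counted. Whether regions with lower EPDC values and no epicardial summit are affected in the same way was not tested.

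Of the 912 collagen regions, 545 lay in introns, 147 upstream and 132 downstream of the genes, 61 at their promoters and 27 in exons. Of all 912, 241 were found in every library and 159 in 1 library only, which left 753 present in at least 2 libraries to be tested. Another gene's promoter held 42 of the regions, and 32 lay near a pair of collagen genes. Introns thus held most of the regions, and *Col4a2* with 62 and *Col4a1* with 52, which share the interval between them, had the most of any locus.

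Most collagen genes had an accessible promoter in every library. A summit lay within 1 kb of a TSS in at least 1 library for 37 of the 40 genes and in all 9 libraries for 34. The promoters of *Col10a1*, a network collagen of growth plate cartilage, *Col17a1*, of the hemidesmosomes of the skin, and *Col28a1* had no summit in any library. *Col20a1* had one in E13.5 sample 1 alone, at percentile 3.49. Collagen promoters ranked below the general level: the class median was 78.1 at E11.5, 82.8 at E17.5 and 82.5 in EPDCs for the fibrillar genes, 74.9, 80.3 and 74.7 for the basement membrane genes and 74.9, 68.8 and 74.5 for the others, against 91.6, 90.8 and 90.6 for all protein-coding genes tested. Among the highest were the membrane-spanning *Col25a1* and *Col23a1*, at 94.5 to 99.1 and 94.5 to 97.6, and *Col11a1*, which sits inside fibrils and limits their width, at 88.5 to 98.3.

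**Figure D1:**
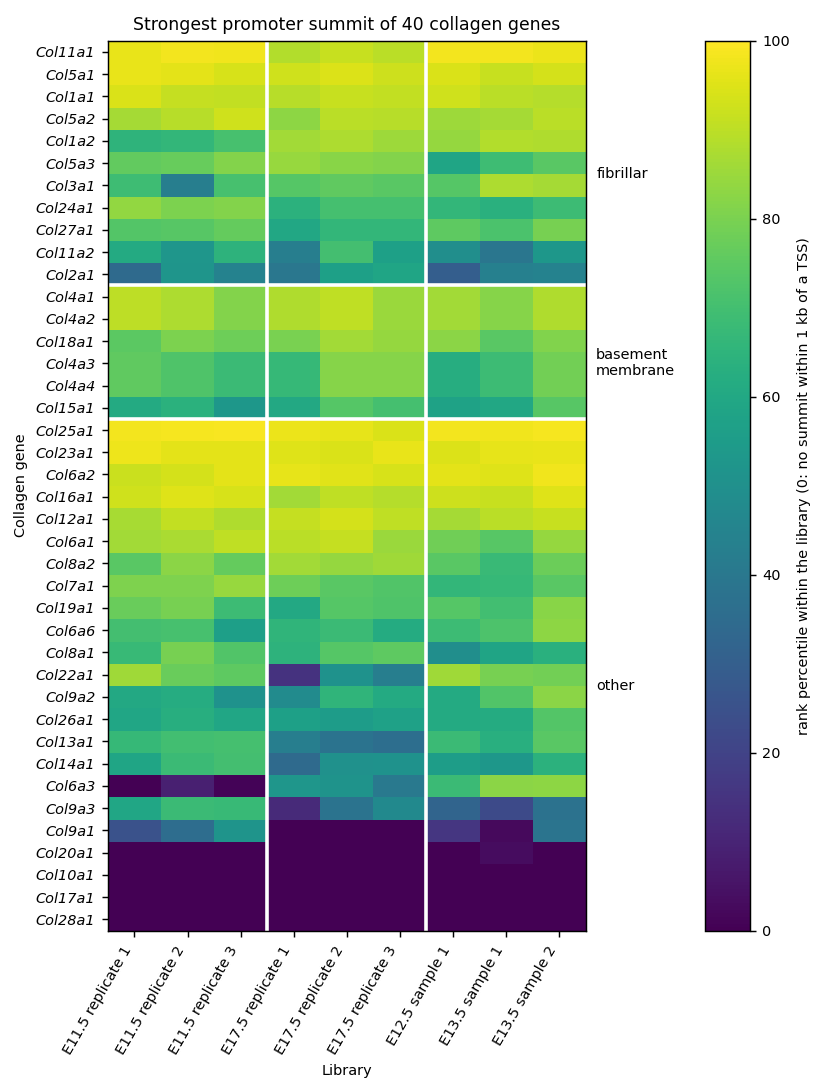
Rank percentile (colour, 0 to 100) of the strongest summit within 1 kb of a TSS for the 40 collagen genes (vertical axis, by class and then by mean) in the 9 libraries (horizontal axis). *Col1a2* and *Col6a3* brighten from the E11.5 to the other columns, *Col13a1* and *Col22a1* darken at E17.5 alone, and *Col10a1*, *Col17a1* and *Col28a1* are dark throughout.

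Between E11.5 and E17.5, 2 collagen promoters rose and 10 fell among the 36 tested. The 2 were *Col1a2*, the second chain of type I collagen, and *Col6a3*, a chain of the beaded filaments of type VI. The 10 that fell were *Col11a1*, *Col24a1* and *Col27a1* of the fibrillar class and *Col9a1*, *Col9a3*, *Col13a1*, *Col14a1*, *Col16a1*, *Col22a1* and *Col25a1* of the others. No basement membrane promoter was among them on this scale. Over all promoters tested 3.51% rose and 13.3% fell, against 5.56% and 27.8% of the collagen promoters, with median differences of −0.44 and −1.39 points. This split depends on the scale. With equally many top summits taken from each library 7 collagen promoters rose and 7 fell, by a depth-normalized score 8 and 7, and by fold enrichment 4 and 7. Over all promoters these scales gave 1994 higher and 1482 lower of 15279, 3700 and 1487 of 15576, and 854 and 1999 of 15576, so the general split turns round as well on the first 2. Among the promoters gained as higher on all 3 of these scales were *Col15a1* (adjusted p = 0.0211, 0.0433 and 0.0175) and *Col18a1* (0.0145, 0.0105 and 0.0177) of the basement membrane class.

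The *Col1a2* promoter stood at 65.2, 66.2 and 70.8 in E11.5 epicardium, rose to 86.2, 87.5 and 85.2 by E17.5 and had 84, 88.6 and 87.9 in EPDCs. Every E17.5 and EPDC library was above every E11.5 library. The rise between stages was 18.9 ± 2.27 points (SE; limma adjusted p = 0.000796), with 75, 79 and 79 fragments piled up at the summit in the E11.5 libraries against 150, 242 and 209 in those of E17.5. Relative to the background of each library these were 18.3 to 24.4 times and 61.7 to 72.5 times. Ranked by fold enrichment the rise was 8.92 points and no longer passed the test (adjusted p = 0.0791). The summit lay 55 to 157 bp downstream of the TSS, next to the sequence printed above.

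At *Col6a3* the promoter was weak at E11.5, with 0.0, 8.85 and 1.09, intermediate at E17.5, with 52.6, 51.5 and 40.4, and strongest in EPDCs, with 68.0, 82.5 and 82.9. The 3 groups did not overlap. The difference was 44.8 ± 5.44 points between the epicardial stages (adjusted p = 0.000858) and 52.1 ± 4.71 between EPDCs and the mean of both stages (adjusted p = 5.8e-05; exact permutation p = 0.0238). The partner chains of type VI collagen, *Col6a1* and *Col6a2*, stood at 85.1 to 91.3 and at 92.1 to 96.1 in the epicardial libraries and did not pass the test between the stages (adjusted p = 0.9 and 0.418). By the depth-normalized score *Col6a2* was called higher at E17.5 and in EPDCs (adjusted p = 0.0197 and 0.0251).

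Among the promoters that fell, *Col13a1*, a membrane-spanning collagen of cell junctions, went from 67.0, 69.8 and 70.4 at E11.5 to 42.9, 37.9 and 36.3 at E17.5 (−30.1 ± 3.73 points, adjusted p = 0.000934), and stood at 68.3, 63.0 and 74.3 in EPDCs. Its strongest summit lay 606 to 785 bp downstream of the TSS in 7 libraries, and with a promoter of 500 bp the fall was −18.5 points and not called (adjusted p = 0.164). *Col22a1*, which marks tissue junctions, went from 85.7, 77.1 and 75.1 to 14.7, 50.9 and 42.9 (−43.1 ± 8.19 points, adjusted p = 0.00802), and was at 85.7, 79.3 and 78.8 in EPDCs. In both genes no E17.5 library reached any other library. *Col11a1* fell by less, from 96.7, 98.1 and 98.0 to 88.5, 91.7 and 89.5 (−7.69 ± 0.83 points, adjusted p = 0.000478).

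Several of the genes that fell encode FACIT collagens, which sit on the surface of fibrils. Of the 9 such genes here, *Col20a1* was not tested and *Col9a2*, *Col12a1* and *Col19a1* did not pass the test, and no count is read from the group. *Col9a1* had 25.1, 35.7 and 51.8 at E11.5 and no summit at E17.5 (−37.5 points, adjusted p = 0.0229), *Col9a3* fell by 32.5 points (adjusted p = 0.0305), *Col14a1* fell by 20.3 (adjusted p = 0.0369) and *Col16a1* fell by 5.49 (adjusted p = 0.0318). Of the fibrillar genes *Col24a1* fell by 13.2 points (adjusted p = 0.0127) and *Col27a1* fell by 10.5 (adjusted p = 0.0447), and the membrane-spanning *Col25a1* fell by 2.82 (adjusted p = 0.00998). Some of these calls rested on the scale or the window. That of *Col9a1* was lost with promoters of 500 bp (−8.37 points, adjusted p = 0.535), with equally many top summits (−13 points, adjusted p = 0.199) and at the stricter threshold (adjusted p = 0.0929), and that of *Col27a1* under 6 alternatives, and *Col27a1* turned to 8.72 points at 500 bp (adjusted p = 0.557). *Col25a1* turned to 0.542 points by fold enrichment (adjusted p = 0.799) and was lost by the depth-normalized score (adjusted p = 0.219). The calls of *Col9a3* (adjusted p = 0.0744) and *Col24a1* (0.215) were also lost by fold enrichment, that of *Col24a1* with equally many top summits (−10.4 points, 0.0537), that of *Col16a1* by the depth-normalized score (0.0807) and that of *Col14a1* at the stricter threshold (0.0596).

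Other calls ended with a library left out, where 10 to 12 collagen promoters were still lower at an unadjusted limma p under 0.05 and the differences kept their direction (−30.4 to −38.4 points for *Col9a1* and −30.9 to −35.4 for *Col9a3* where the call was lost). Without E11.5 replicate 1 the calls of *Col9a3*, *Col24a1* and *Col27a1* were lost (adjusted p = 0.0544, 0.0516 and 0.0871). Without E11.5 replicate 2 those of *Col9a1*, *Col9a3*, *Col14a1*, *Col16a1* and *Col27a1* were lost (0.0635, 0.0973, 0.114, 0.116 and 0.11), and without E11.5 replicate 3 those of the same genes (0.0746, 0.088, 0.116, 0.0898 and 0.132), which left 5 promoters called lower in either case. Without E17.5 replicate 1 or 3 *Col9a1* (0.0605 and 0.0657), *Col14a1* (0.0894 and 0.0513), *Col16a1* (0.0894 and 0.0755) and *Col27a1* (0.124 and 0.0764) were lost, which left 6, and without E17.5 replicate 2 *Col9a1* (0.054) and *Col27a1* (0.0593). Leaving out E12.5 sample 1 or E13.5 sample 1, which enter the estimate of spread, ended *Col14a1* (0.0541 and 0.0551) and *Col27a1* (0.0638 and 0.0526). The calls of *Col1a2*, *Col6a3*, *Col11a1*, *Col13a1*, *Col22a1* and *Col25a1* passed with any 1 library left out, apart from the changes of scale and window given above.

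In EPDCs 5 collagen promoters were higher than in the epicardium and 5 were lower, 13.9% in each direction of the 36 tested, beside 8.93% and 13.6% of all promoters tested. Higher were *Col1a2*, *Col6a3*, *Col11a1*, *Col13a1* and *Col22a1*, and lower were *Col5a3*, a fibrillar chain, *Col6a1*, *Col7a1*, the anchoring fibril collagen, *Col8a1*, a network collagen of vessel walls, and *Col24a1*. The median difference was −0.49 points for the collagen promoters and −0.38 for all.

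*Col6a3* and *Col1a2* (9.96 ± 1.96 points, adjusted p = 0.00744) were thus called higher in both comparisons, although the EPDC values of *Col1a2* overlapped those at E17.5 (exact permutation p = 0.19). For *Col11a1* (4.11 points, adjusted p = 0.00415), *Col13a1* (14.5, adjusted p = 0.0131) and *Col22a1* (23.5, adjusted p = 0.044) the EPDC values lay among those of E11.5 and above those of E17.5, so the contrast with both stages together carries the fall at E17.5. All 3 of these calls were lost by fold enrichment, at 3.5, 10.8 and 23.5 points (adjusted p = 0.153, 0.0869 and 0.0586). Those of *Col13a1* and *Col22a1* were lost with promoters of 500 bp, at 22.5 and 23.5 points (0.0509 for each). *Col3a1*, the partner of type I collagen in soft tissues, had 68.8, 42.7 and 70.9 at E11.5, 73.7, 75.7 and 74.3 at E17.5 and 73.5, 87.5 and 86.4 in EPDCs. It did not pass the test in either comparison (adjusted p = 0.232 and 0.119), but did in EPDCs by the depth-normalized score (adjusted p = 0.0289).

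*Col5a3* had 76.0, 76.7 and 81.6 at E11.5, 84.5, 82.4 and 81.6 at E17.5 and 58.9, 68.8 and 74.5 in EPDCs, a difference of −13.1 ± 3.3 points (adjusted p = 0.0224; exact permutation p = 0.0119). Every EPDC library was below every epicardial library. The same separation held for *Col6a1* (−9.48 points, adjusted p = 0.0252) and *Col8a1* (−15.1, adjusted p = 0.0317), and not for *Col7a1* (−9.28, adjusted p = 0.0299) or *Col24a1* (−8.9, adjusted p = 0.03). All 5 lower calls were lost without E12.5 sample 1 and without E13.5 sample 1, while 6 and 5 promoters were then lower at an unadjusted limma p under 0.05 (adjusted p = 0.0557 and 0.0693 for *Col5a3*, 0.079 and 0.11 for *Col6a1*, 0.109 and 0.126 for *Col7a1*, 0.124 and 0.097 for *Col8a1*, 0.0786 and 0.127 for *Col24a1*). Only 1 lower call was left without E11.5 replicate 3 or E17.5 replicate 2, 2 without E11.5 replicate 2 and 3 without E17.5 replicate 3, and *Col24a1* was also lost without E11.5 replicate 1. All 5 stayed lower in direction with any 1 library left out. With intervals in place of summits *Col24a1* turned to 3.65 points (adjusted p = 0.448), and by fold enrichment *Col5a3* and *Col6a1* were lost at −11 and −13 points (adjusted p = 0.0933 and 0.0573). At the stricter threshold *Col8a1* and *Col24a1* were lost at −16.1 and −9.33 points (0.0515 and 0.0534). *Col22a1* was lost without any 1 library other than E17.5 replicates 1 and 2, with adjusted p up to 0.15.

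No basement membrane promoter passed the test on the rank scale, although *Col15a1* and *Col18a1* were called higher at E17.5 on the 3 other scales given above. *Col4a1* and *Col4a2*, the common chains of type IV collagen, are transcribed away from each other from overlapping starts and so share 1 value, 90.1, 87.6 and 81.4 at E11.5, 87.9, 90.4 and 85.0 at E17.5 and 86.2, 81.9 and 88.0 in EPDCs. The groups overlapped in both comparisons (adjusted p = 0.799 and 0.631). *Col4a3* and *Col4a4* share another, at 62.3 to 82.0 over the 9 libraries. *Col15a1* stood at 52.8 to 74.0 and *Col18a1*, the source of endostatin, at 74.5 to 86.3. *Col5a1*, *Col5a2* and *Col12a1* likewise had no call on the rank scale, with values of 91.5 to 96.8, 83.1 to 92.8 and 86.5 to 93.6. *Col12a1* was called higher at E17.5 with equally many top summits per library (6.33 points, adjusted p = 0.0167) and by the depth-normalized score (adjusted p = 0.00457).

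The promoter of *Col1a1*, the first chain of type I collagen, had no call when its strongest summit within 1 kb was taken, at 94.5, 91.3 and 90.9, then 89.2, 91.6 and 91.0, then 92.7, 89.6 and 88.8. That value, however, came from different places. In all 3 E17.5 libraries the strongest summit lay 18 to 22 bp downstream of the TSS, and in the other 6 libraries it lay 864 to 989 bp downstream. The following regions of this locus and of those below were chosen after their values were seen, and their adjusted p comes from the fit over all regions.

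At the *Col1a1* TSS itself (chromosome 11, 94935996 to 94936496) the region had 40.7, 69 and 71.3 at E11.5, 89.2, 91.6 and 91.0 at E17.5 and 64.1, 72.9 and 83.5 in EPDCs, a rise of 30.2 ± 7.92 points between the stages (adjusted p = 0.0169). The neighbouring region, in an intron 1.0 kb downstream of the TSS (94936963 to 94937463), fell from 94.5, 91.3 and 90.9 to 59.6, 71.7 and 68.0 (−25.8 ± 2.89 points, adjusted p = 0.000207) and had 92.7, 89.6 and 88.8 in EPDCs. With a promoter of 500 bp, which leaves the second region out, the *Col1a1* promoter rose by 30.2 points (adjusted p = 0.0375). A further region, 2.4 kb upstream (94933565 to 94934065), had 33.7, 36.7 and 30.2 in the younger epicardium against 74.8, 83.8 and 78.5 in the older, and no summit in any EPDC library (45.5 ± 5.34 points between stages, adjusted p = 0.000265; −56.3 ± 4.63 in EPDCs, adjusted p = 4.8e-05). Downstream of the gene, 19.1 kb from the TSS, a region fell from 72.7, 72.9 and 84 to 35.9, 30.4 and 12.7 and had 81.9, 81.8 and 86.3 in EPDCs (−50.2 points, adjusted p = 0.000364).

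**Figure D2:**
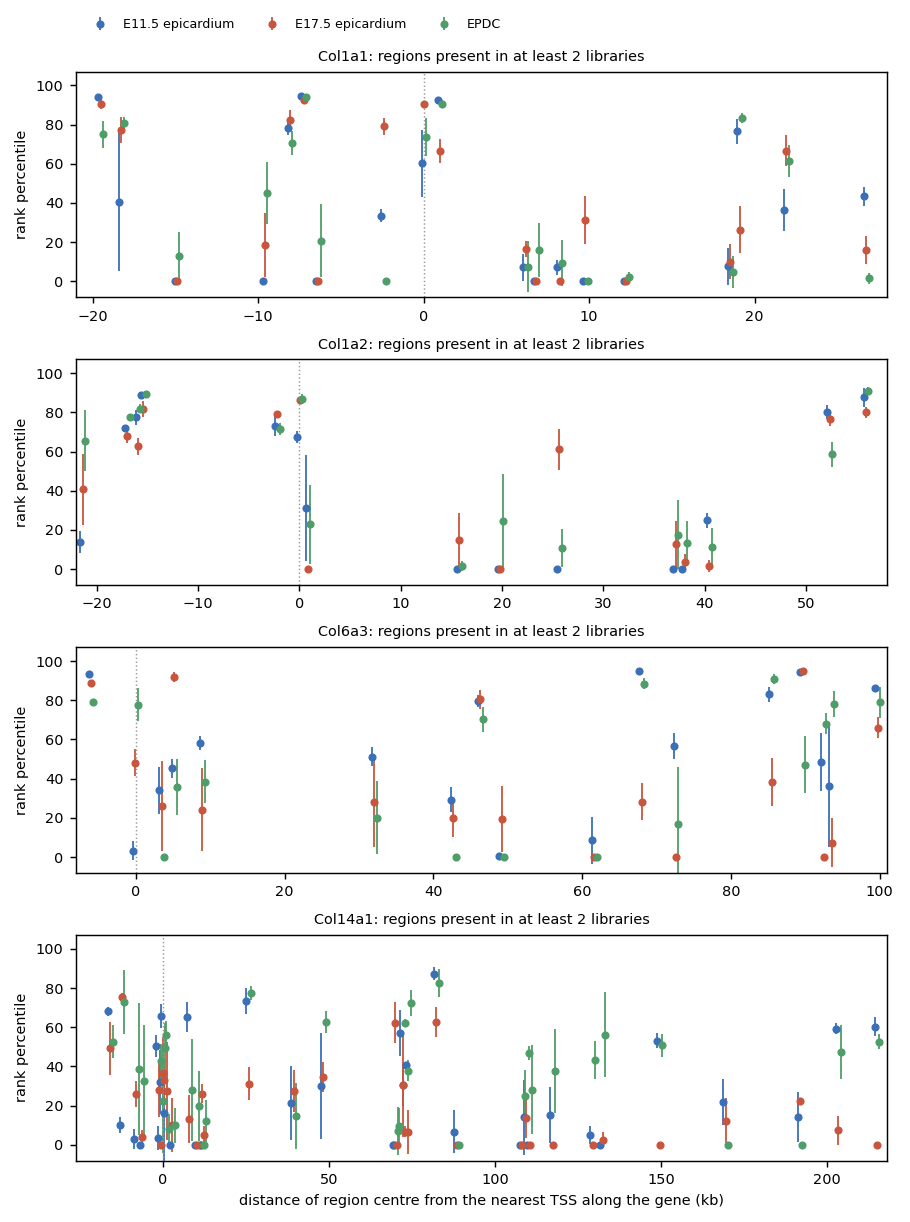
Mean rank percentile with SD over 3 libraries (vertical axis) of each region present in at least 2 libraries, by distance from the nearest TSS of the gene (horizontal axis, kb; colours of a region are set slightly apart), at *Col1a1*, *Col1a2*, *Col6a3* and *Col14a1*. At *Col1a1* the region 2.4 kb upstream is high at E17.5 and at 0 in EPDCs, and at *Col6a3* the exonic region at 68.0 kb is low at E17.5 alone.

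The type I partner *Col1a2* held an exonic region 25.7 kb from its TSS (chromosome 6, 4530907 to 4531407) with no summit at E11.5 and with 50.7, 71.8 and 60.7 at E17.5 (61.1 ± 7.04 points, adjusted p = 0.00024), and with 0.0, 14.0 and 18.7 in EPDCs. A region 15.9 kb upstream fell from 74.6, 81.8 and 76.1 to 57.9, 66.6 and 63.3 (adjusted p = 0.0047), and one 52.4 kb downstream of the TSS was lower in EPDCs, at 57.5, 53.1 and 65.6 against 73.1 to 84 (−19.6 points, adjusted p = 0.00149). Over the locus 6 of 15 regions tested were higher in EPDCs and 2 were lower, beside 18.9% and 23.0% of all regions. At *Col3a1* 5 regions were higher in EPDCs and 0 were lower of 16 tested, among them one in an intron 4.8 kb from the TSS at 43.7, 24.6 and 23.2 with no summit in the epicardium (adjusted p = 0.00108).

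At the *Col6a3* locus, where the promoter rose at E17.5, 2 of 17 regions tested rose and 7 fell, beside 9.13% and 25% of all regions. A region in an intron 5.2 kb from the TSS (chromosome 1, 90838493 to 90838993, also an exon of *Gm36970*) rose from 49.3, 46.4 and 39.9 to 92.3, 93.9 and 89.0 and was at 21.3, 35.6 and 49.8 in EPDCs, a difference of 46.6 ± 6.96 points between the stages (adjusted p = 0.000965). A region in an exon 68.0 kb from the TSS (90775668 to 90776168) had 94.2, 96.6 and 94.4 at E11.5, 18.5, 37.3 and 29.1 at E17.5 and 91.6, 87.2 and 86.8 in EPDCs (−66.8 ± 4.4 points, adjusted p = 2.6e-05). Of its 25-base words 36.3% recur elsewhere in the genome. Past the end of the gene, 89.7 kb from the TSS, a region was lower in EPDCs, at 53.0, 30.4 and 57.5 against 93.0 to 96.1 in the epicardium (−47.6 points, adjusted p = 0.000182).

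Over all collagen regions tested, 90 (12.0%) were higher at E17.5 and 167 (22.2%) lower, beside 9.13% and 25% of all 154147 regions tested. The median difference was −1.96 points, against −3.95 over all. With equally many top summits per library 118 of 630 rose and 113 fell, beside 20422 and 24328 of all 125777. By the depth-normalized score the counts were 128 and 157 of 753, beside 22077 and 38338 of all 154147. In EPDCs 165 collagen regions (21.9%) were higher and 162 (21.5%) lower than in the epicardium, beside 18.9% and 23.0% of all regions, with medians of −1.57 and −2.85. These shares stand close to those of all regions, and nothing particular to the collagen loci is read from them.

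Within the classes, 19 of 179 fibrillar regions rose at E17.5 (10.6%) and 41 fell (22.9%), 30 of 180 basement membrane regions rose (16.7%) and 31 fell (17.2%), and 41 of 394 other regions rose (10.4%) and 95 fell (24.1%). In EPDCs 41 fibrillar regions were higher (22.9%) and 33 lower (18.4%), 40 basement membrane regions higher (22.2%) and 53 lower (29.4%), and 84 others higher (21.3%) and 76 lower (19.3%). The basement membrane loci thus had the highest share of regions rising at E17.5 and of regions lower in EPDCs, a description with no test between the classes. The loci of *Col4a1* and *Col4a2*, with 46 and 59 of the tested regions and some counted at both, weigh most in these shares. Over all regions tested 9.13% rose and 25% fell at E17.5, and 18.9% were higher and 23.0% lower in EPDCs. By place, 49 of 447 intronic regions rose at E17.5 and 106 fell, and 21 of 123 upstream regions rose and 24 fell. Downstream 9 of 110 rose and 22 fell, at promoters 7 of 55 and 12, and in exons 4 of 18 and 3. Nothing is read from these counts by place.

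**Figure D3:**
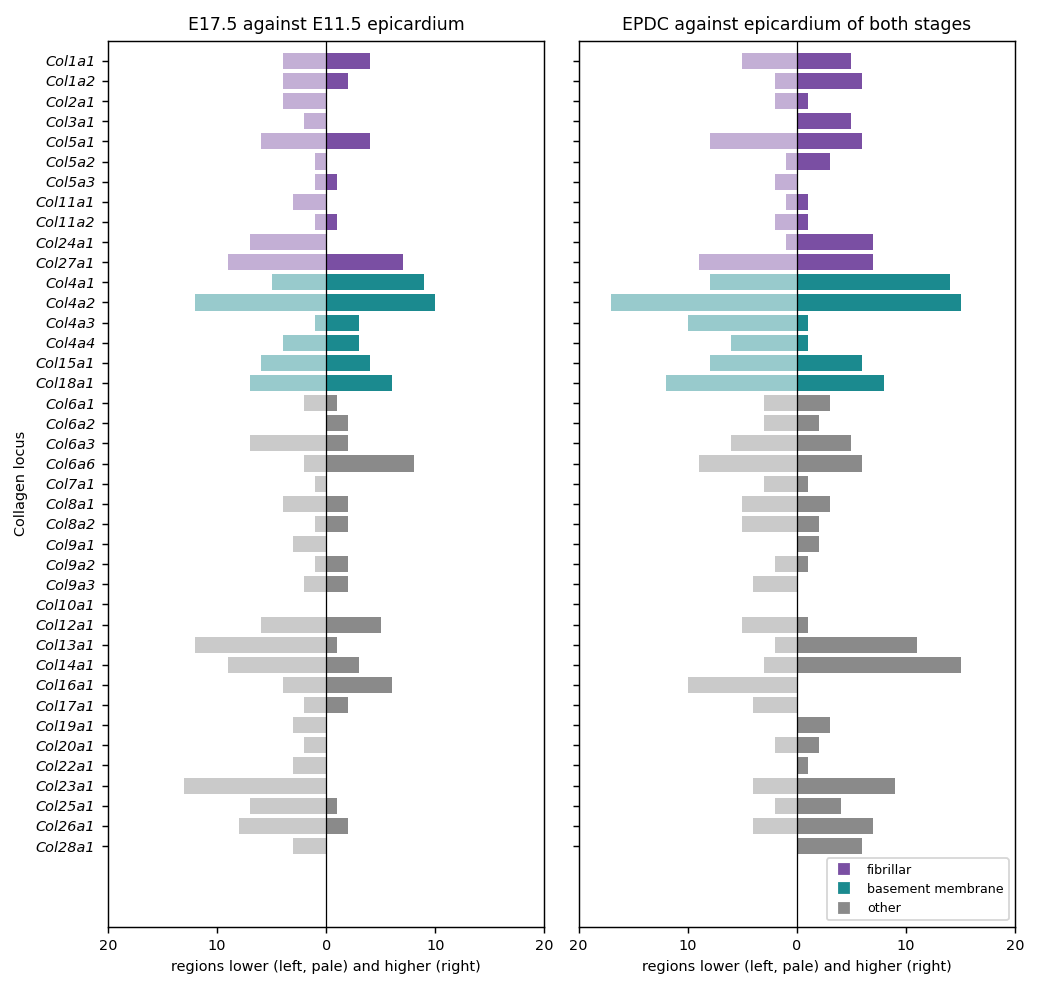
Number of regions called higher (right, full colour) and lower (left, pale) at each collagen locus (vertical axis, coloured by class), for E17.5 against E11.5 epicardium (left panel) and EPDCs against the epicardium of both stages (right panel). *Col13a1* and *Col23a1* lean to lower at E17.5, and these and *Col14a1* lean to higher in EPDCs. *Col16a1* leans to lower in EPDCs, with 10 regions against 0. Over all regions 9.13% were higher and 25% lower at E17.5, and 18.9% and 23.0% in EPDCs, and *Col14a1* stood near the E17.5 shares. No locus was tested against these shares.

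Called counts at single loci are given beside shares over all regions of 9.13% higher and 25% lower at E17.5, and of 18.9% and 23.0% in EPDCs, with no test of a locus against them. *Col23a1*, a membrane-spanning collagen, had 0 regions higher and 13 lower at E17.5 of 36 tested, and 9 higher and 4 lower in EPDCs, while its promoter stayed at 94.5 to 97.6 in all 9 libraries. *Col13a1* had 1 higher and 12 lower at E17.5 of 32, and 11 and 2 in EPDCs. *Col24a1* had 0 and 7 of 16, then 7 and 1. *Col14a1*, which regulates fibril packing, had 3 and 9 of 35, then 15 and 3. *Col16a1* went the other way, with 6 higher and 4 lower at E17.5 of 21 and 0 higher and 10 lower in EPDCs, as did *Col4a3*, with 3 and 1 of 17, then 1 and 10. *Col6a6* had 8 higher and 2 lower at E17.5 of 30. Both comparisons use the E17.5 libraries with opposite signs, so regions low at E17.5 alone count on both sides.

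At *Col14a1* a region 12.2 kb upstream of the TSS (chromosome 15, 55295263 to 55295763) rose from 6.73, 8.85 and 14.8 at E11.5 to 74.9, 77.7 and 74.6 at E17.5 and stood at 54.9, 76.7 and 86.8 in EPDCs (65.6 ± 7.78 points between the stages, adjusted p = 0.00028). In contrast, a region downstream of the gene 215.0 kb from the TSS went from 54.8, 62.5 and 63.6 to no summit, with 57, 50.3 and 50.5 in EPDCs (−60.3 points, adjusted p = 7.2e-05). Within the gene, a region 132.4 kb from the TSS had 31.1, 68.1 and 69.7 in EPDCs and a summit in 1 epicardial library only, at 7.28 (55.1 points, adjusted p = 0.000985).

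At *Col4a1* an intronic region 60.2 kb from the TSS (chromosome 8, 11252423 to 11252923) had 34.4 to 62.0 in the epicardium and 91.4, 93.4 and 92.2 in EPDCs (44.7 ± 6.15 points, adjusted p = 0.00062; exact permutation p = 0.0119). Another, 50.3 kb from the TSS, had 0.0 to 37.2 in the epicardium and 57.5, 83.2 and 83.0 in EPDCs (adjusted p = 0.000394), and one 40.3 kb from the TSS, had 32.2, 61.5 and 63.0 in EPDCs and no summit in the epicardium (adjusted p = 0.000436). All 3 passed the test, and the shared promoter did not.

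Of the 10 regions with the most certain rise at E17.5, 9 had no summit in any of the other 6 libraries. These 9 passed the filter of 2 libraries through E17.5 libraries alone, and their zeros entered the fit as values without spread. Ranking by adjusted p can favour such regions, so this pattern is not read as a result. Besides the *Col9a3* upstream region printed above, which had 82.8, 87.4 and 85.3 at E17.5 (85.1 ± 4.6 points, adjusted p = 2.4e-05; 138, 258 and 231 fragments), a region 64.7 kb downstream of the *Col16a1* TSS, inside *Pef1*, had 84.6, 86.8 and 81.5 (84.3 points, adjusted p = 2.4e-05), and one in an intron of *Col4a2* 33.7 kb from the TSS had 59.4, 78.2 and 71.6 (69.7 points, adjusted p = 4.4e-05). The same held for regions in *Col16a1* 27.4 kb from its TSS (53.4, 74.9 and 73.3), 15.2 kb upstream of *Col9a2* (41.3, 53.7 and 56.2) and 18.4 kb upstream of *Col17a1* (36.3, 41.2 and 32.2). The other 4 of the 10 had a further summit within 1 kb in 7 to 9 of the libraries. When the strongest summit within 1 kb was taken, the differences of the regions near *Col11a2* (12.3 kb upstream, at the *H2-Ke6* promoter), *Col16a1* (24.6 kb upstream) and *Col27a1* (33.6 kb, intron) changed from 70, 67.5 and 60 points to −3.6, −0.565 and −12.4, and that of *Col12a1* (4.5 kb, intron) from 52.7 to 3.3 (adjusted p = 0.159, 1.0, 0.258 and 0.845). With intervals in place of summits the *Col11a2* and *Col16a1* regions of these had 40.8 and 54.2 points and were not called (adjusted p = 0.134 and 0.0674).

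Of the 10 most certain falls at E17.5, most stood high at E11.5 and in EPDCs alike. The intronic *Col4a2* region printed above had 89.7, 95.3 and 95.5 at E11.5, 44.6, 51.9 and 47.2 at E17.5 and 85.1, 89.4 and 89.5 in EPDCs (−45.6 ± 2.66 points, adjusted p = 2.4e-05), with 156, 235 and 217 fragments against 33, 59 and 50 in the epicardial stages. The same form was seen in introns of *Col23a1* (169.0 kb from the TSS, 93.0, 93.3 and 94.5 to 49.9, 59.5 and 49.1, adjusted p = 3.7e-05) and *Col13a1* (50.2 kb, 82.3, 84.2 and 89.8 to 35.4, 33.6 and 44.6, adjusted p = 5.1e-05). An intronic region of *Col22a1* 8.1 kb from the TSS went from 79.4, 82.7 and 78.6 to 1.43, 0.0 and 0.0 (−79.8 ± 5.34 points, adjusted p = 2.6e-05), which was the largest fall of the 10. Regions downstream of *Col8a2* (41.6 kb, −64.3 points), in introns of *Col20a1* (1.3 kb, −63.2) and *Col23a1* (80.6 kb, −57.2), and downstream of *Col9a3* (33.2 kb, −48.0) and *Col18a1* (65.8 kb, −40.4) completed the list with the exonic *Col6a3* region. The regions downstream of *Col9a3* and *Col18a1* had at most 2.61 in any EPDC library.

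**Figure D4:**
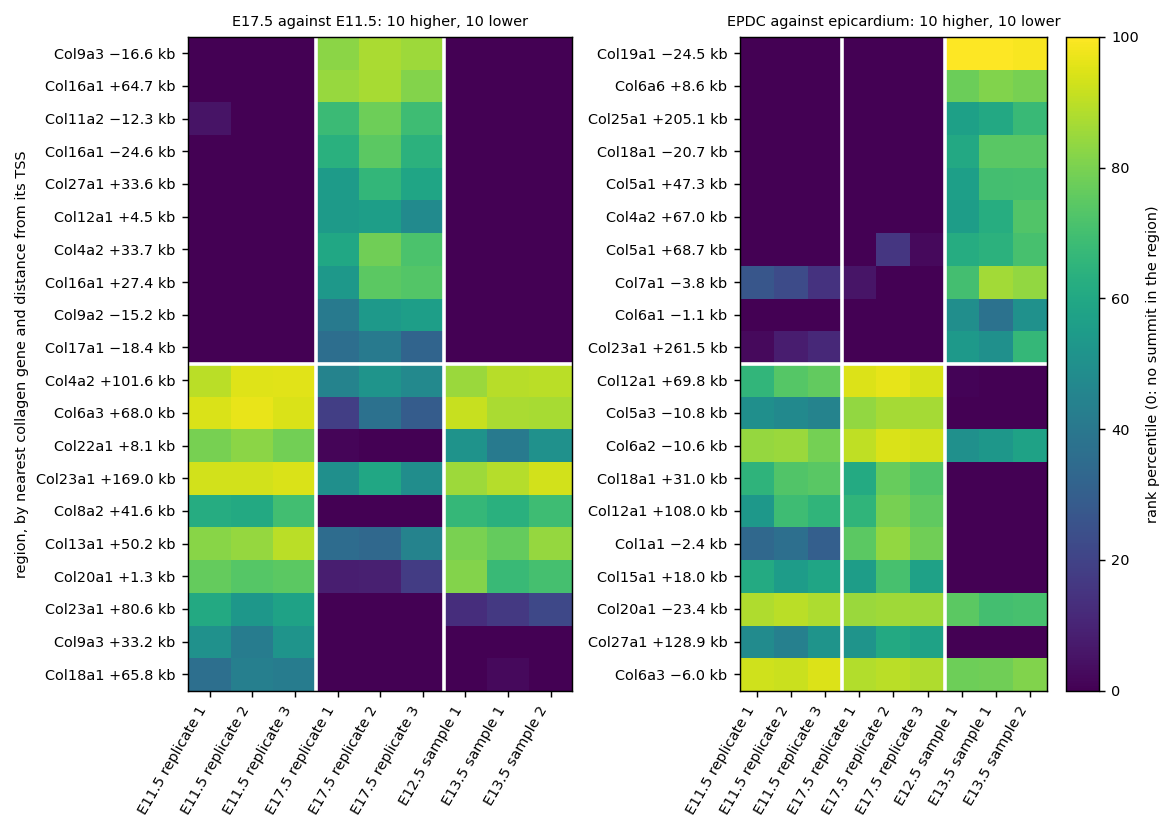
Rank percentile (colour) in the 9 libraries (horizontal axis) of the 10 higher and 10 lower collagen regions with the smallest adjusted p in each comparison (vertical axis, by nearest collagen gene and distance from its TSS, at most 3 a gene). Of the 10 regions higher at E17.5, 9 have a summit in E17.5 libraries alone, and of the 10 higher in EPDCs, 7 have none in the epicardium.

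Higher in EPDCs were regions with no summit in any epicardial list, in introns of *Col25a1* (57, 60.4 and 67.9; 61.8 ± 3.86 points, adjusted p = 1.2e-05), whose sequence is printed above, of *Col18a1* 20.7 kb from the TSS (60.3, 74.5 and 74.6; 69.8 points, adjusted p = 1.5e-05) and of *Col4a2* 67.0 kb from the TSS (55.5, 62.4 and 72.7; 63.5 points, adjusted p = 2.3e-05), and 1.1 kb upstream of *Col6a1* (49.3, 37.6 and 50.4; 45.8 points, adjusted p = 5.2e-05). These regions passed the filter of 2 libraries through EPDC libraries alone, and their epicardial zeros entered the fit as values without spread. Ranking by adjusted p can favour such regions, and they are not read as closed in the epicardium. At the *Col25a1* region 42, 51 and 134 fragments were piled up. A region 3.8 kb upstream of *Col7a1* had 26.6, 22.7 and 14.8 at E11.5, 5.69, 0.0 and 0.0 at E17.5 and 70.2, 86.2 and 83.7 in EPDCs (68.4 points, adjusted p = 4.8e-05), although the *Col7a1* promoter was lower in EPDCs. Regions in introns of *Col5a1* (68.7 kb) and *Col23a1* (261.5 kb) rose by 62.6 and 53.2 points, and another of *Col5a1* (47.3 kb) had 65.7 points that turned to −9.29 (adjusted p = 0.064) with the strongest summit within 1 kb.

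A pair of the regions highest in EPDCs held sequence that recurs in the genome. The region 24.5 kb upstream of *Col19a1*, in an exon of *Gm28439*, had 100, 99.9 and 99.1 in EPDCs and no summit in the epicardium, and 100% of its 25-base words also occur in the mitochondrial genome. The region in an intron of *Col6a6* 8.6 kb from the TSS had 77.5, 81.0 and 79.5, again with none in the epicardium, and 21.6% of its words recur. Ranked by fold enrichment, the *Col19a1* region had a difference of 0.193 points (adjusted p = 0.915). Over all 912 collagen regions 8 had more than 50% of their words repeated, and 1 of these was called. Neither region is read here as a difference between the cells. Other named regions also held recurring words, 36.3% at the exonic *Col6a3* region and 19.7% at the region downstream of *Col27a1*. Downstream of *Col9a3* (33.2 kb) and *Col8a2* (41.6 kb) the shares were 17.8% and 15.3%. The differences at these regions carry the same limit.

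Lower in EPDCs was, first, an exonic region of *Col12a1*, a FACIT collagen of load-bearing tissue, 69.8 kb from its TSS (chromosome 9, 79648504 to 79649004). It had 65.9, 73.6 and 76.0 at E11.5, 94.9, 96.2 and 93.8 at E17.5 and 0.829, 0.0 and 0.0 in EPDCs (−83.1 ± 3.7 points, adjusted p = 2.4e-06; exact permutation p = 0.0119). The *Col6a2* upstream region printed above had 84, 84.9 and 79.1, then 90.6, 94.2 and 93.0, then 50, 52.8 and 57.8 (−34.1 ± 2.25 points, adjusted p = 1.6e-05), so it remained accessible in EPDCs at a lower rank. Regions with no summit in any EPDC library lay 10.8 kb upstream of *Col5a3*, in an exon of *Rdh8* (44.8 to 49.8 at E11.5, 83.7 to 86.7 at E17.5), in introns of *Col18a1* (31.0 kb, 61.1 to 76.7 in the epicardium), *Col12a1* (108 kb, 53.4 to 79.4) and *Col15a1* (18 kb, 55.1 to 70.8), and 128.9 kb downstream of the *Col27a1* TSS at the *Orm1* promoter (43.7 to 60.9). Upstream of *Col20a1* (23.4 kb) and *Col6a3* (6.0 kb) the difference was smaller, at −14.8 and −11.8 points, from 85.0 to 89.6 and from 88.1 to 94.8 in the epicardium, and every EPDC library was below every epicardial one. Ranked by fold enrichment the *Col20a1* region had −5.36 points and was not called (adjusted p = 0.313). The single region near *Col10a1*, whose promoter had none, kept a mean of 94.6 to 95.1 in the 3 groups.

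The genes that make and assemble collagen were read at their promoters. Of 43, all were tested, and 3 rose and 9 fell at E17.5, beside 3.51% and 13.3% of all promoters, with a median difference of −1.56 points against −0.44 over all. This list was read on the rank scale only, and the split over all promoters turned round on other scales, as given above. *P4ha3*, a prolyl hydroxylase chain that stabilises the helix, rose from 26.6, 32.9 and 35.3 to 63.9, 66.2 and 62.7 (32.7 ± 4.03 points, adjusted p = 0.000919) and had 52.1, 62.5 and 61.6 in EPDCs. *Lox*, which crosslinks fibrils, rose by 8.55 points (adjusted p = 0.0273) and *Ppib* by 1.75 (adjusted p = 0.0145). Among those that fell were *Pcolce2* (−32.7 points, adjusted p = 0.0155) and *Pcolce* (−10.8, adjusted p = 0.0437), enhancers of propeptide cleavage, the fibril-associated *Sparc* and *Dcn*, the crosslinking *Loxl3*, and the collagen receptors *Ddr2* (−14.7, adjusted p = 0.0157), *Itga1*, *Itga2* and *Itgb1*.

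In EPDCs 4 of the 43 were higher and 4 lower, beside 8.93% and 13.6% of all promoters, with a median difference of 0.44 points against −0.38 over all. *Pcolce* had 66.9 to 72.5 at E11.5, 56.2 to 62.5 at E17.5 and 78.5, 82.8 and 86.2 in EPDCs (18.1 ± 2.68 points, adjusted p = 0.00154; exact permutation p = 0.0119), and *Colgalt2*, which adds sugars to hydroxylysine, was higher by 13.6 points (adjusted p = 0.0155) and *Loxl3* by 5.48 (adjusted p = 0.00969). *P4hb* went from 0 in all 6 epicardial libraries to 99.4, 99.6 and 99.7, and it is one of the 193 promoters named above, which are not read as a difference. Lower were *Mia3*, *Dcn*, *Fmod* (−8.63 points, adjusted p = 0.000338) and the receptor *Ddr1* (−9.29, adjusted p = 0.000802). *Serpinh1*, the collagen chaperone, had 87.5 to 94.3 over the 9 libraries and no call.

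Motifs were counted in the collagen regions that changed and in all regions that changed. AP-1, bound by FOS and JUN proteins, was present in 42.2% of the 90 collagen regions higher at E17.5 and in 16.2% of the 167 lower ones, against 37.4% and 20.1% of all regions higher and lower and 22.8% of all regions tested. The NFI half-site was in 41.1% and 24%, against 40.3%, 25.9% and 28.4%. In EPDCs AP-1 was in 17.0% of the 165 higher and 38.3% of the 162 lower collagen regions, against 17.1% and 33.7% over all, and the E-box, a form bound by TCF21 and other bHLH factors, was in 43.6% and 37.0%, against 42.6% and 32.5%. Shares differed more for the CCAAT letters, in 35.6% of the collagen regions higher at E17.5 and 45.6% of all such regions, for the E-box there (40% and 31.6%) and for GATA in regions lower in EPDCs (25.9% and 33%). RUNX was in 43.9% of the basement membrane regions tested, 21.2% of the fibrillar ones and 29.5% of all. A match is a description of sequence and not a site of binding, and CCAAT and NFI letters can share bases. In the RefSeq promoter table (GRCm38.p6, 250 bases before to 50 after a start), 34 entries matched the 40 genes by symbol. The GC box was in 55.9% of these entries and 35.7% of all 32851.

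**Figure D5:**
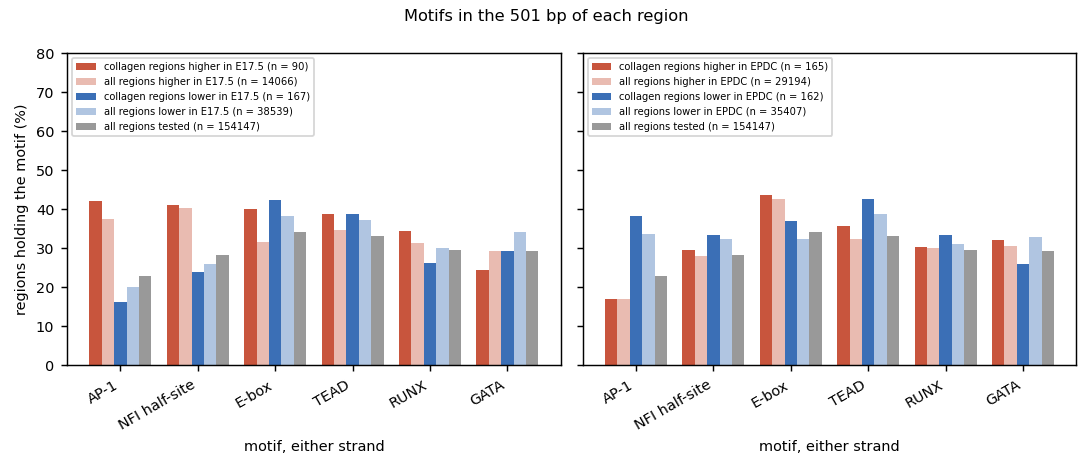
Share of regions (vertical axis, %) holding each motif (horizontal axis), for collagen regions (full colour) and all regions (pale) higher (red) or lower (blue) and for all regions tested (grey), at E17.5 against E11.5 (left panel) and in EPDCs against the epicardium (right panel). AP-1 stands at 42.2% and 16.2% of collagen regions higher and lower at E17.5, and at 17.0% and 38.3% in EPDCs.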

How the data were processed

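ATAC-seq libraries of sorted mouse epicardial cells and EPDCs were used as the peak lists deposited by the authors, 9 lists for 10 samples, since a pair of technical replicates share a list. The authors processed reads with an nf-core ATAC-seq workflow against mm10, removed duplicates, multimapping, blacklisted and mitochondrial reads, and called peaks on fragment pairs with MACS2 (2.2.9.1 in the submitters' processing notes, which also list deepTools, edgeR and featureCounts without a role). The deposited columns are the fold enrichment over the local background and the −log10 p and −log10 q of each summit, and no summit had a −log10 q under 2. Read depth is not in these lists, so the background fragments per position, recovered from the fold enrichment and p, stand in for it, and the precision rests on the spread between libraries.

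Summits were merged into regions of 501 bp, and promoters were taken within 1 kb of any TSS of GENCODE M21. Elements present in at least 2 libraries were fitted with limma 3.58.1 (R 4.3.3) across all 154147 regions or 15576 promoters, with all 9 libraries sharing the estimate of spread and p-values adjusted by Benjamini-Hochberg. The contrasts were E17.5 minus E11.5 epicardium, and EPDCs minus the mean of both stages. All exact tests are two-sided. The fit was tested on simulated data. Biological replicates are independent pools of hearts.

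Named regions are the 10 higher and 10 lower with the smallest adjusted p in each comparison, at most 3 a gene, with every called collagen promoter and 15 genes chosen for their roles; other regions were picked after their values were seen. Members, gene lists and motifs were chosen with earlier results of these data known. Alternatives were the ranking, threshold, windows, filter, samples in the fit and each library left out; taking the strongest summit within 1 kb of a region was added after seeing the data. The number of gene lists and motifs was not adjusted for.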

Additional observations from a re-analysis of the deposited data

How the results depend on the processing

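The 4 counts of collagen regions stayed within 1.5 times of 90, 167, 165 and 162 under every alternative, and with each library left out they ran from 67 to 106, 133 to 173, 114 to 201 and 110 to 183. Promoter counts moved more. Those higher at E17.5 numbered 2, and 7 with equally many top summits per library, 4 by fold enrichment and 8 by the depth-normalized score. Those lower numbered 10, and 5 to 10 with a library left out. Those higher in EPDCs numbered 5, with 10 by the depth-normalized score and 3 with promoters of 500 bp. Those lower in EPDCs numbered 5, with 3 by fold enrichment or with a −log10 q of at least 5, 8 by the depth-normalized score, and 0 to 6 with a library left out, where 5 to 8 of the 36 promoters were lower at an unadjusted limma p under 0.05. Single results turned in direction at the *Col1a1* promoter (30.2 points with 500 bp, adjusted p = 0.0375), at *Col27a1* between stages (8.72 with 500 bp), at *Col25a1* between stages (0.542 by fold enrichment) and at *Col24a1* in EPDCs (3.65 with intervals in place of summits), and, with the strongest summit within 1 kb, at regions of *Col11a2* (−3.6), *Col16a1* (−0.565), *Col27a1* (−12.4) and *Col5a1* (−9.29). Apart from the windows, which take in a further summit by construction, the cause was not tested. Of 641 pairs of a named result and an alternative without a left-out library, 31 lost and 11 gained a call in the same direction and 8 turned in direction. Same-numbered E11.5 and E17.5 replicates did not deviate together (correlations of 0.0141, 0.0405 and −0.0315), so the numbers do not pair samples; a fit of the epicardial libraries alone gave 95 regions higher and 177 lower, and 2 and 9 promoters, and ended the call of *Col27a1* (adjusted p = 0.069), and the replicate number added to it as a block gave 95, 176, 2 and 9 (*Col27a1* 0.0856) and ended no further named call. An element listed at 0 lies below the authors' threshold, which a library's depth sets in part.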
